A study of Rattus norvegicus with 18 samples.

Results

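Matrix proteases and protease inhibitors were examined in the basolateral amygdala (BLA), a region that processes threat and stress, of adult male Sprague-Dawley rats. The genes were taken by name and by a minimum mean, and the choice was made with earlier results of these data known. They were the protein-coding genes called Mmp, Adam, Adamts or Adamtsl, Timp, Reck, Plat, Plau, Klk or Serpin whose mean over the 18 libraries was above 1. This rule took 77 of the 18172 genes tested. They fell into 10 Mmp, 14 Adam, 23 Adamts and Adamtsl, 5 Timp and Reck, 2 Plat and Plau, 6 Klk and 17 Serpin genes, and 64 of the 77 had a mean of 10 or more. Another 5 genes matched by name but stayed at or below the minimum: Adam2 and Mmp21 had means of 0.639 and 0.388, and Mmp11, Mmp28 and Adam21 were listed at 0 in every library. Closest to the lower threshold were Adam2, outside, and Serpinb1b, inside, with a mean of 1.08, and closest to the higher one were Serpine3, outside, with 8.57, and Serpinf2, inside, with 10.1.

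RNA from BLA micropunches was sequenced in 18 rats, 6 in each of 3 groups. ER rats had lived in enriched housing and were then moved to single housing (enrichment removal). EE rats stayed in enriched housing, which here meant group life in a large cage with toys during the active part of the day and single housing for the rest of it. SH rats were housed singly throughout. All animals were male and of 1 strain, each rat gave 1 library of polyadenylated RNA, and enriched rats shared cages, so that a spread between cages is not covered by tests that take rats as units. Every pair of groups was compared: EE with SH (EEvSH), ER with SH (ERvSH) and ER with EE (ERvEE). Values are normalised reads, that is reads per gene divided by 1 size factor for each library. They are not corrected for gene length, so a gene is compared between rats and never with another gene.

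The brain's extracellular matrix is a mesh of hyaluronan, chondroitin sulphate proteoglycans and glycoproteins that is cut and rebuilt around synapses. Matrix metalloproteases (MMPs), ADAMs and ADAMTS enzymes are zinc proteases that cut this mesh or release receptors and ligands from the cell surface, and TIMPs and RECK hold them in check. Tissue and urokinase plasminogen activators and the kallikreins are serine proteases, which serpins trap in a covalent complex. Many of these enzymes are made as inactive precursors, so a transcript level is not an enzyme activity.

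Each library held 17753797 to 23450276 reads, and the 77 members took a mean of 0.194% ± 0.0048 of them in ER, 0.194% ± 0.00453 in EE and 0.183% ± 0.0196 in SH (SD, n = 6 each). In every library, 60 members had at least 1 read. SH 1 and SH 3 stood apart from the other libraries. Over the 64 members with a mean of 10 or more, the median distance of a value from its gene's mean over all rats was 0.434 and 0.589 on the log2 scale in SH 1 and SH 3, against 0.152 to 0.274 in the other 16 rats. SH 3 was the lowest or the highest of the 18 rats for 29 of the 64 members (45.3%, against 50.9% of all genes with a mean of 10 or more), and SH 1 for 14 (21.9% against 18.2%). The coefficient of variation between rats had a median over these members of 19.5% in ER, 23.6% in EE and 31.5% in SH, against 11.5%, 13.2% and 21.4% over all genes with a mean of 10 or more. Markers of neurons, astrocytes, microglia, myelinating oligodendrocytes and endothelium were read in all groups, with none of the listed genes at 0 throughout. Markers of striatal neurons, which lie next to the BLA, were also present, at a sum of 7471 to 13822 in ER, 9481 to 13727 in EE and 8025 to 15443 in SH, and the share of neighbouring tissue was not tested.

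No member passed an adjusted p of 0.05 in any contrast, by limma, by edgeR or by DESeq2. In limma no gene of the whole table passed either (0% of 18172 in EEvSH, 0% in ERvSH and 0% in ERvEE), and the smallest adjusted p of a member was 0.749 in EEvSH, 0.567 in ERvSH and 1.00 in ERvEE. At an unadjusted p under 0.05, limma gave 5 of the 77 members in EEvSH, 3 higher and 2 lower in EE, where all tested genes gave 5.87%, 3.35% higher and 2.53% lower. The count was 6 in ERvSH, 5 higher and 1 lower in ER, where all genes gave 7.89%, 4.57% higher and 3.32% lower. It was 6 in ERvEE, 2 higher and 4 lower in ER, where all genes gave 3.66%, 1.38% higher and 2.28% lower. As shares of the members these are 6.49%, 7.79% and 7.79%, or 4, 6 and 5 of the 64 members with a mean of 10 or more. The share was close to that of all genes in EEvSH and ERvSH and above it in ERvEE, a difference that was not tested. On recovered reads edgeR gave 7, 5 and 6 such members and DESeq2 9, 5 and 6. The share of all genes is not given for these 2 methods, so these counts have no background beside them. The genes in limma were Adamts4, Adamts16, Mmp24, Mmp9 and Serpini1 in EEvSH, Adam9, Adam22, Adam4, Adamts1, Mmp19 and Serpine2 in ERvSH and Adam17, Adamts16, Mmp9, Serpine2, Serpinh1 and Reck in ERvEE.

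Median log2 fold changes of the 64 members were small, at 0.08 in EEvSH, 0.04 in ERvSH and 0.03 in ERvEE, beside 0.02, 0.01 and 0.00 for all 15211 genes of that level. Positive values were found for 37, 35 and 36 of the 64 (57.8%, 54.7% and 56.2%), against 53.5%, 51.1% and 51.0% of all genes. These directions leaned on SH 1 and SH 3. Without both rats the EEvSH median was -0.04, with 26 of 64 positive, and 21 of the 64 had the opposite sign to that over all 18 rats. The sign also changed for 5856 of all 15211 genes of that level, so such changes were not particular to the members. The ERvSH median without both rats was -0.01, with 32 of 64 positive. There 15 of the 64 members and 5341 of the 15211 genes had the opposite sign. Groups that did not overlap at all were found for 1 member, Reck in ERvEE, and for 0 members in the other contrasts. Over all genes this was the case for 0.171% in EEvSH, 0.292% in ERvSH and 0.215% in ERvEE.

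**Figure D1:**
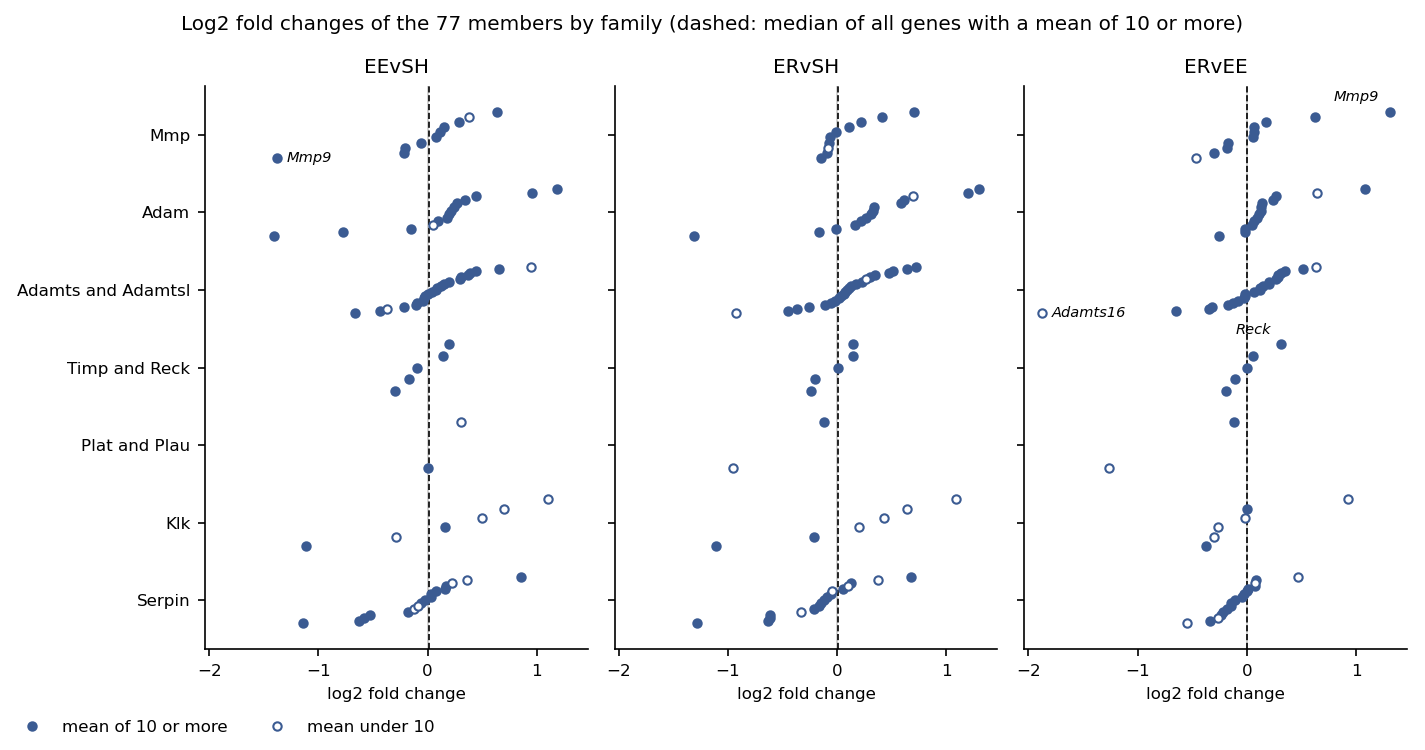
Log2 fold change of each of the 77 members (horizontal axis, on log2(value + 1)) by family, in EEvSH, ERvSH and ERvEE. Filled points are the 64 members with a mean of 10 or more, open points those under 10, and the dashed line is the median of all genes with a mean of 10 or more; most points lie close to it, Mmp9 lies at -1.38 in EEvSH and 1.31 in ERvEE, and Adamts16 at -1.88 in ERvEE.

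Several MMPs are bound to the cell membrane. Mmp17, whose protein is tied to the surface by a lipid anchor, had 2649, 3006 and 3626 normalised reads in ER rats (lowest, median and highest), 2459, 2622 and 3261 in EE and 2487, 2801 and 3642 in SH. Its groups overlapped in all contrasts, with a log2 fold change of 0.17 (SE 0.10, adjusted p = 1.00 in limma) in ERvEE. Mmp24, a membrane protease of neurons that can cut N-cadherin, had 1630, 1748 and 2028 in EE rats and 1814, 1952 and 2599 in SH rats. The EEvSH log2 fold change was -0.20 (SE 0.09, adjusted p = 0.749 in limma), and 4 of the 6 EE rats lay below the lowest SH rat. SH 1 and SH 3 were the 2 highest rats, at 2334 and 2599, and without them the value was -0.08. Mmp15 had 937 ± 71.3 in ER, 1064 ± 155 in EE and 1000 ± 72.2 in SH, a log2 fold change of -0.17 (SE 0.09, adjusted p = 1.00) in ERvEE.

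The gelatinases cut denatured collagen and basement membrane. Mmp9, a secreted gelatinase that is induced by neuronal activity and cuts perisynaptic matrix, had 14.3, 24.6 and 47.5 in ER rats, 2.00, 9.42 and 31.4 in EE rats and 8.25, 29.3 and 57.3 in SH rats. Of the 6 EE rats, 3 lay below the lowest rat of both other groups and 2 had 31.4, so the groups overlapped. The log2 fold change was -1.38 (SE 0.59, adjusted p = 0.749) in EEvSH and 1.31 (SE 0.59, adjusted p = 1.00) in ERvEE in limma, and edgeR on recovered reads gave -1.17 and 0.89 with no adjusted p under 0.05. SH 1 and SH 3 again had the highest values, 57.3 and 53.7, and without them the EEvSH value was -0.85. Mmp2, the constitutive gelatinase, had 138 ± 23.8 in ER, 171 ± 39.8 in EE and 139 ± 28.2 in SH, with log2 fold changes of 0.29 (SE 0.16, adjusted p = 0.749) in EEvSH and -0.30 (SE 0.16, adjusted p = 1.00) in ERvEE. The EE group held 1 rat, EE 5, at 249, with the others between 146 and 177, and without it the ERvEE value was -0.18. Mmp14, the membrane protease that activates the Mmp2 precursor, had 197 ± 31.4 in ER, 225 ± 46.7 in EE and 206 ± 31.1 in SH, and no contrast had a p under 0.05. Mmp19, a secreted MMP, had 22.8, 31.5 and 52.5 in ER and 10.4, 20.1 and 41.1 in SH, a log2 fold change of 0.70 (SE 0.33, adjusted p = 0.567) in ERvSH. The 2 lowest SH values, 10.4 and 10.7, were those of SH 1 and SH 3, and without them the value was 0.29. Mmp3, stromelysin, was at 0 in 3 ER, 2 EE and 3 SH rats and had 11 reads at most in a library.

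The ADAM genes leaned to positive values. In ERvSH, 11 of 14 had a positive log2 fold change (median 0.32), and the counts were 11 of 14 in EEvSH (median 0.21) and 11 of 14 in ERvEE (median 0.12). Without SH 1 and SH 3 they were 10 of 14 in ERvSH (median 0.07) and 5 of 14 in EEvSH (median -0.04). Adam11, Adam22 and Adam23 make neuronal surface proteins that have lost their protease activity, and Adam22 and Adam23 bind the secreted protein LGI1 at synapses. Adam22 had 791, 1081 and 1224 in ER rats, 578, 852 and 1318 in EE rats and 230, 823 and 1133 in SH rats. The lowest of the 18 rats was SH 3, at 230, and SH 1 was second lowest, at 563. The ERvSH log2 fold change of 0.61 (SE 0.28, adjusted p = 0.567) was 0.16 without both rats. Adam23 behaved alike in these rats, with 2003, 2172 and 2441 in ER against 447, 1832 and 2404 in SH, where SH 3 and SH 1 had 447 and 1235. Its ERvSH value was 0.58 (SE 0.28, adjusted p = 0.567), and 0.09 without them. For Adam11, ER rats had 3201, 3526 and 3663, EE rats 2818, 3177 and 3406, and SH rats 1451, 3261 and 3692. In ERvEE, which holds no SH rat, 4 of the 6 ER rats lay above the highest EE rat. The ERvEE log2 fold change was 0.13 (SE 0.17, adjusted p = 1.00) in the fit of all 18 rats, and 0.13 with an adjusted p of 0.629 in limma when SH 1 and SH 3 did not enter the estimate of the spread.

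Adam10, the main alpha-secretase and the sheddase of Notch and N-cadherin, had 1773, 1946 and 2069 in ER rats, 1633, 1848 and 2124 in EE rats and 817, 1808 and 2162 in SH rats. SH 1 and SH 3 were its 2 lowest rats, and the ERvSH value of 0.34 (SE 0.17, adjusted p = 0.567) was 0.02 without them. Adam9, a sheddase of growth factors, had 1050, 1127 and 1264 in ER against 622, 1003 and 1122 in SH, and 4 of the 6 ER rats lay above the highest SH rat. Its ERvSH log2 fold change was 0.27 (SE 0.11, adjusted p = 0.567), and 0.10 without SH 1 and SH 3. Adam17, the sheddase of tumour necrosis factor, had its highest median in EE. It reached 400, 438 and 497 in ER rats, 412, 522 and 677 in EE rats and 363, 447 and 546 in SH rats. The log2 fold change was 0.24 (SE 0.12, adjusted p = 0.749) in EEvSH and -0.26 (SE 0.12, adjusted p = 1.00) in ERvEE, with 2 of 6 ER rats below the lowest EE rat. The EEvSH value was 0.13 without SH 1 and SH 3, and the ERvEE value was -0.18 without EE 1, the rat at 677. Adam4 had 27.8 ± 8.51 in ER, 26.4 ± 11.2 in EE and 15.9 ± 12.4 in SH (log2 fold change 1.29, SE 0.59, adjusted p = 0.567 in ERvSH and 1.18, SE 0.59, adjusted p = 0.749 in EEvSH), with SH 3 at 0. Without SH 3 these values were 0.59 and 0.48, and without SH 1 and SH 3 they were 0.51 and 0.40. The RefSeq span of Adam4 overlaps that of Cox16.

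**Figure D2:**
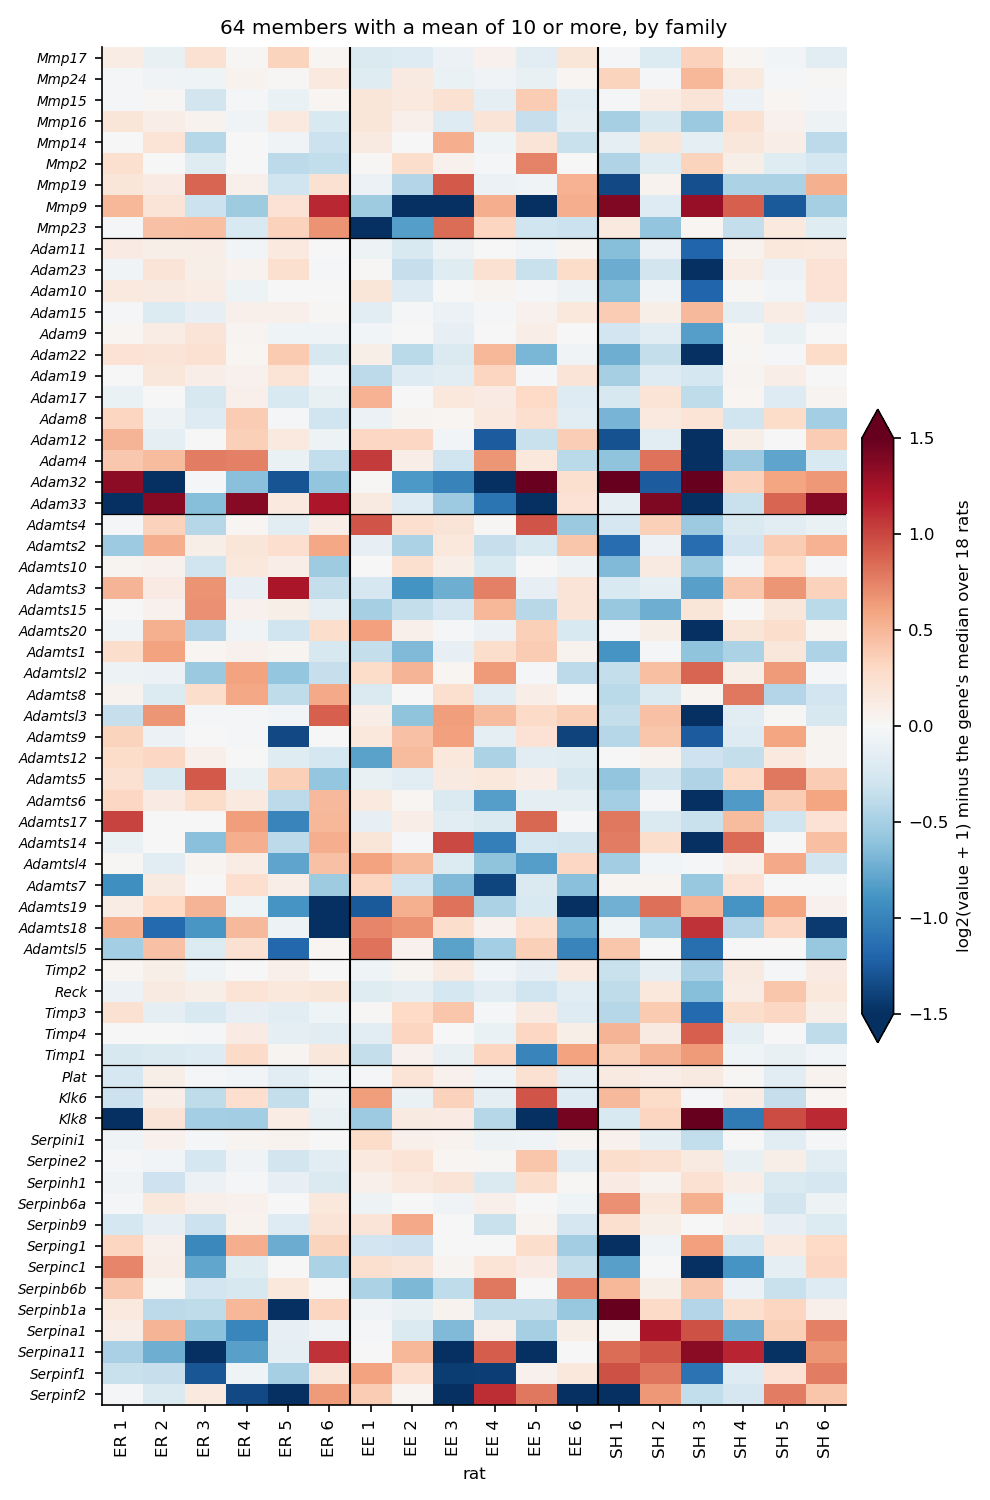
Heat map of the 64 members with a mean of 10 or more (rows, by family and within it by mean) in the 18 rats (columns, ER, EE and SH from left to right). Colour gives log2(value + 1) minus the median of the gene over the 18 rats and saturates at 1.5 in either direction; SH 1 and SH 3 hold the extreme values of many rows, with Adam11, Adam23, Adam10 and Adam22 low in both.

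The ADAMTS enzymes cut the chondroitin sulphate proteoglycans of the matrix, or trim procollagens and other secreted proteins. Adamts4, an aggrecanase that in the brain is made chiefly by oligodendrocytes, had 379, 516 and 649 in ER rats, 347, 596 and 982 in EE rats and 351, 450 and 657 in SH rats. The EE group was spread most, with EE 1 and EE 5 at 982 and 980 and EE 6 at 347, below every rat of the other groups. Its log2 fold change was 0.45 (SE 0.21, adjusted p = 0.749) in EEvSH, 0.13 (SE 0.21) in ERvSH and -0.32 (SE 0.21, adjusted p = 1.00) in ERvEE. Adamts1, which cuts aggrecan and versican and is induced in many cells by injury, had 108, 133 and 195 in ER, 80.8, 125 and 168 in EE and 68.7, 92.5 and 145 in SH. The ERvSH log2 fold change was 0.51 (SE 0.20, adjusted p = 0.567), with 2 of 6 ER rats above the highest SH rat, and 0.32 without SH 1 and SH 3. Adamts5, the other main aggrecanase, had 53.8 ± 20.9 in ER, 47.0 ± 5.65 in EE and 51.2 ± 19.9 in SH, and its log2 fold changes lay between -0.05 and 0.12. Without SH 1 and SH 3 they were -0.32 in EEvSH and -0.20 in ERvSH.

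Adamts16 had the smallest unadjusted p of all members in any contrast, in ERvEE. ER rats had 1.03, 1.98 and 4.41 normalised reads, EE rats 3.77, 9.10 and 26.0, and SH rats 3.12, 3.88 and 11.9. All ER rats had 4 reads or fewer, and 4 of them lay below the lowest EE rat, while the remaining 2 overlapped EE 4, which had 3 reads. The ERvEE log2 fold change was -1.88 (SE 0.45, adjusted p = 1.00 in limma), where the smallest adjusted p over all genes was 0.624, and the ratio of the group means was 0.194. Its EEvSH value was 0.95 (SE 0.45, adjusted p = 0.749) and its ERvSH value -0.93 (SE 0.45, adjusted p = 0.567). DESeq2 on recovered reads gave -2.36 with an adjusted p of 0.479 in ERvEE. With a mean of 6.76 the gene was among the 13 members under 10, and it is among the matrix genes that the study lists, so it was not an independent choice. The remaining ADAMTS and ADAMTS-like genes had unadjusted p-values of 0.0759 or more in every contrast. In the family as a whole 13, 16 and 13 of 23 log2 fold changes were positive in EEvSH, ERvSH and ERvEE.

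Among the 5 inhibitors of the metalloproteases, Reck separated ER from EE, and the 4 TIMPs overlapped in every contrast. Reck, a membrane-anchored inhibitor of several MMPs and ADAMs that also serves as a Wnt7 co-receptor on brain endothelium, had 852, 1004 and 1050 in ER rats, 739, 805 and 829 in EE rats and 585, 997 and 1210 in SH rats. Every ER rat lay above every EE rat. The ERvEE log2 fold change was 0.31 (SE 0.13, adjusted p = 1.00), and it was 0.30 to 0.36 when each rat was left out in turn. SH spanned both groups: SH 1 and SH 3, at 700 and 585, lay below all EE rats, and the other 4 SH rats, at 979 to 1210, above them. EEvSH was -0.17 (SE 0.13, adjusted p = 0.749) with all rats and -0.41 (adjusted p = 0.114) without SH 1 and SH 3, so this value turned on which SH rats were counted.

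Timp2, a secreted inhibitor that also takes part in Mmp2 activation, had 7720, 8167 and 8568 in ER rats, 7394, 8088 and 8911 in EE rats and 5779, 7625 and 8838 in SH rats. The 2 lowest were again SH 1 and SH 3, at 6413 and 5779. The log2 fold changes were 0.14 (SE 0.09, adjusted p = 0.749) in EEvSH, 0.14 (SE 0.09, adjusted p = 0.578) in ERvSH and 0.00 (SE 0.09, adjusted p = 1.00) in ERvEE, and 0.00 in both contrasts with SH when those rats were left out. Timp3, the matrix-bound inhibitor that also blocks ADAM17 and the aggrecanases, had 498, 531 and 684 in ER, 512, 616 and 779 in EE and 261, 663 and 772 in SH. With SH 3 at 261 and SH 1 at 436 its ERvSH value was 0.00 (SE 0.20). Over the remaining rats it was -0.35 (adjusted p = 0.689 in limma), with the 4 other SH rats at 621 to 772. Timp4 ran the other way in these rats, with SH 1 and SH 3 the 2 highest at 516 and 676, and its group values were 355 ± 25.4 in ER, 385 ± 55.6 in EE and 427 ± 146 in SH. Timp1, the inducible TIMP, had 36.8 ± 5.89 in ER, 37.1 ± 13.6 in EE and 44.1 ± 10.3 in SH. In RefSeq the spans of Timp1, Timp3 and Timp4 overlap those of the synapsin genes Syn1, Syn3 and Syn2, and the strand setting of the counting was not given in the sources used here. Reads of these neighbours may therefore enter their values.

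**Figure D3:**
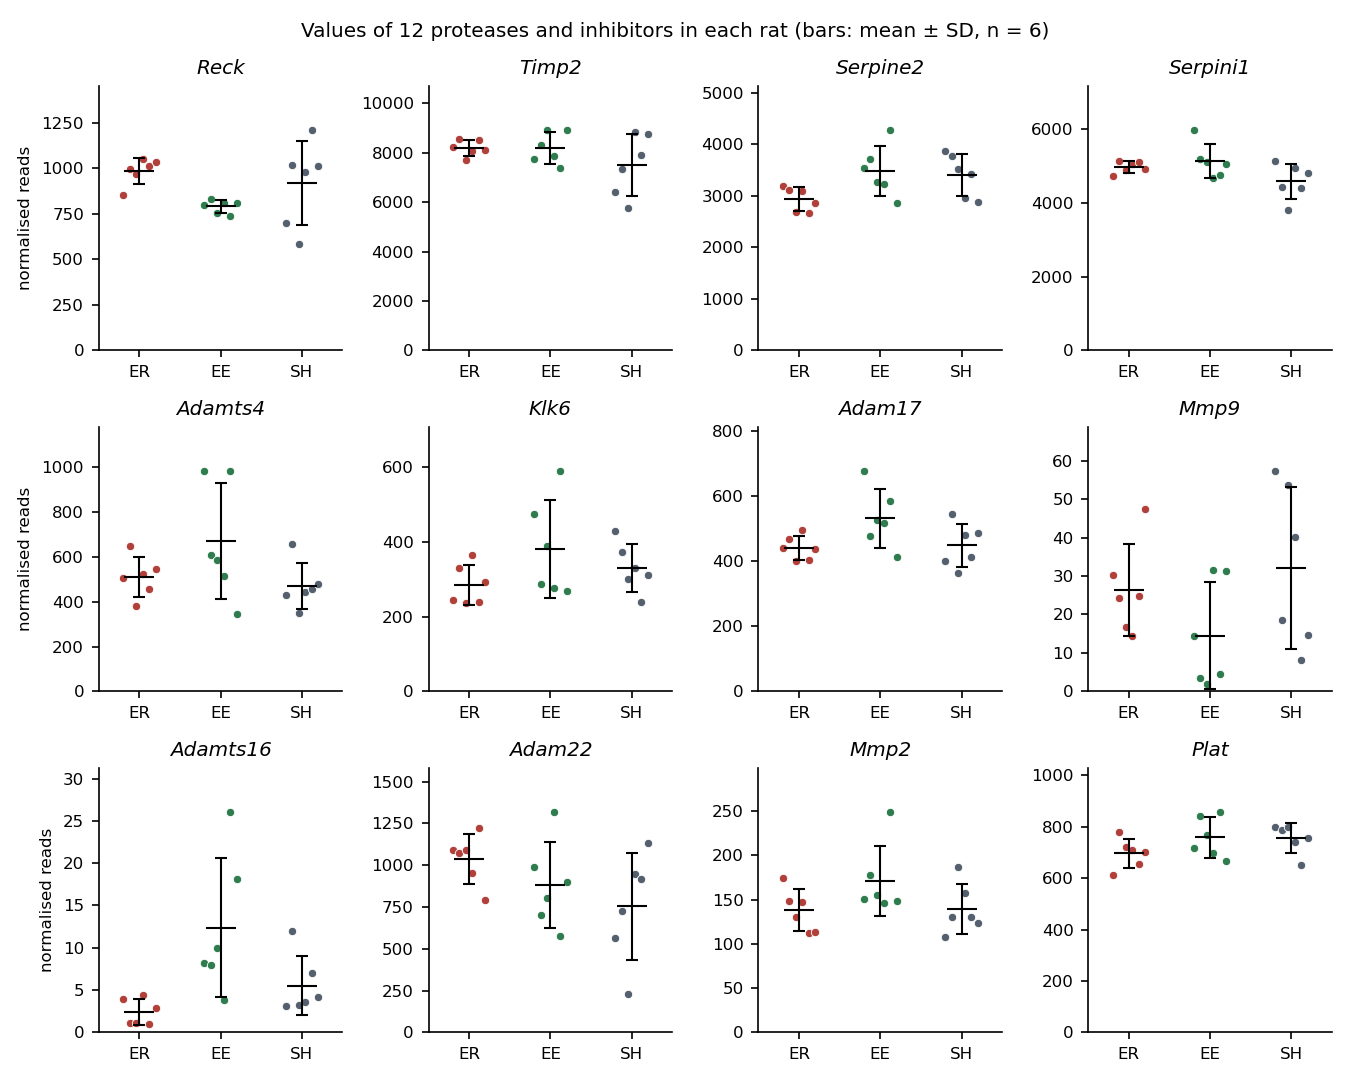
Normalised reads of 12 members in each rat (points), with the mean and SD of 6 rats (bars), for ER, EE and SH from left to right. Every axis starts at 0. Reck in ER (852 to 1050) lies above EE (739 to 829) without overlap, Adamts16 in ER (1.03 to 4.41) lies mostly below EE (3.77 to 26.0), and the other 10 genes overlap between all groups.

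Plat encodes tissue plasminogen activator, a serine protease released by neurons, endothelium and other cells. It had 614, 705 and 778 in ER rats, 666, 742 and 857 in EE rats and 651, 771 and 801 in SH rats, and the log2 fold change of Plat was 0.00 (SE 0.08) in EEvSH, -0.12 (SE 0.08, adjusted p = 0.605) in ERvSH and -0.12 (SE 0.08, adjusted p = 1.00) in ERvEE. The groups overlapped throughout. Plau, urokinase, was sparse, with 5.04 ± 5.50 in ER, 10.6 ± 8.23 in EE and 7.73 ± 4.41 in SH, 2 ER rats at 0 and 21 reads at most in a library.

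Of the 6 kallikreins, Klk6 and Klk8 had means over 10. Klk6, which is made by mature oligodendrocytes and can cut myelin proteins, had 236, 268 and 364 in ER, 268, 338 and 590 in EE and 240, 321 and 430 in SH, with a log2 fold change of -0.38 (SE 0.19, adjusted p = 1.00) in ERvEE, and -0.24 without EE 5. EE 1 and EE 5 were its highest rats, at 475 and 590, as they were for Adamts4. Klk8, neuropsin, a hippocampal and amygdalar protease that acts in plasticity, had 1.95, 20.8 and 29.7 in ER, 0, 23.5 and 71.3 in EE and 11.8, 42.2 and 75.2 in SH, with a log2 fold change of -1.11 (SE 0.79, adjusted p = 0.618) in ERvSH, which was -0.61 without ER 1. Klk7 and Klk10, which the study also listed, were at 0 in many rats. Klk7 was at 0 in 4 ER, 3 EE and 5 SH rats and had 5 reads at most in a library, and its EEvSH value was 0.70 (SE 0.71, adjusted p = 0.787). Klk10 was at 0 in 2 ER, 3 EE and 3 SH rats and averaged 3.65 ± 3.57 in ER, 5.16 ± 5.91 in EE and 0.734 ± 0.892 in SH (log2 fold change 1.10, SE 0.79, adjusted p = 0.749 in EEvSH). On recovered reads the Klk10 value in EEvSH was 2.62 in edgeR and 2.81 in DESeq2 (adjusted p = 0.78 and 0.765), and the limma value was 0.68 without EE 1.

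Serpins with known partners in the brain followed. Serpini1, neuroserpin, the neuronal inhibitor of tissue plasminogen activator, had 4731, 4978 and 5126 in ER rats, 4667, 5074 and 5965 in EE rats and 3808, 4613 and 5136 in SH rats. In EEvSH the log2 fold change was 0.16 (SE 0.07, adjusted p = 0.749), with 2 of 6 EE rats above the highest SH rat, and 0.14 without SH 1 and SH 3. Within ER it varied least of all 64 members, with a coefficient of variation of 3.11%. Serpine2, protease nexin-1, a thrombin inhibitor made largely by astrocytes, had 2658, 2977 and 3182 in ER, 2858, 3407 and 4275 in EE and 2877, 3467 and 3866 in SH. ER rats were lower with a log2 fold change of -0.24 (SE 0.09, adjusted p = 1.00) in ERvEE and -0.21 (SE 0.09, adjusted p = 0.567) in ERvSH, and overlapped both groups. Neither passed the adjustment. Without EE 5, its highest rat at 4275, the ERvEE value was -0.18. Without SH 1 and SH 3 the ERvSH value was -0.15. In the same contrasts 10 and 9 of 12 astrocyte markers had negative values (medians -0.12 and -0.16), their summed level spanned 77825 to 88542 in ER, 79994 to 105220 in EE and 82755 to 106165 in SH, and none was at 0. Markers of other cells also leaned to 1 side in ERvEE: 10 of 10 endothelial and 10 of 11 microglial markers had negative values (medians -0.09 and -0.28), and 12 of 12 neuronal markers positive ones (median 0.12). In bulk tissue fewer cells of a type and less RNA per cell cannot be told apart, and the part of astrocytes in the Serpine2 values was not tested beyond the relation with the astrocyte score.

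Serpinh1, a chaperone of collagen that inhibits no protease, had 642, 741 and 791 in ER, 689, 861 and 958 in EE and 674, 843 and 938 in SH, with a log2 fold change of -0.22 (SE 0.10, adjusted p = 1.00) in ERvEE. Serpinc1, antithrombin, had 45.9 ± 17.9 in ER, 49.7 ± 7.06 in EE and 33.7 ± 19.2 in SH, where SH 3 had 4.30, and its EEvSH value was 0.86 (SE 0.43, adjusted p = 0.749) with and 0.25 without SH 1 and SH 3. Over the family, 8 of 17 log2 fold changes were positive in EEvSH, 5 in ERvSH and 6 in ERvEE.

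Members with a known cell type were compared with marker scores of those cells over the 18 rats. This was done in 12 gene and marker list pairs, after group means were removed. The pairs were chosen after values had been seen, so the p-values below are a description and not an independent test. No member was compared with the scores of other cell types, and scores of different cell types can move together. EE 5 had scores of 1.74, 1.37 and 0.862 for myelinating oligodendrocytes, microglia and astrocytes, and EE 6 had -0.982, -0.934 and -0.769. Whether a relation was particular to 1 cell type was not tested. Adamts4 moved with the score of myelinating oligodendrocytes, with Pearson's r of 0.917 and Spearman's rho of 0.886 (permutation p = 1e-05 for both, the smallest that 100000 permutations give, adjusted p = 6e-05 and 0.00012, two-sided). Klk6 did so with r of 0.842 (adjusted permutation p = 6e-05) and rho of 0.812 (adjusted permutation p = 0.00032). Without EE 1 and EE 6, the 2 rats farthest from the median score, r was 0.859 for Adamts4 and 0.815 for Klk6, and without SH 1 and SH 3 it was 0.955 and 0.854. Serpine2 moved with the astrocyte score, with r of 0.796 (adjusted permutation p = 0.00024) and rho of 0.802 (adjusted permutation p = 0.00032). Its r was 0.854 without EE 6 and SH 3, the farthest rats, and 0.912 without SH 1 and SH 3. Of the other 9 pairs the nearest to the threshold was Adamts1 with endothelium, at r of 0.514 and rho of 0.494 (adjusted permutation p = 0.0846 and 0.115). Timp4 with astrocytes had r of 0.0674 over all rats, 0.527 without EE 6 and SH 3 and 0.495 without SH 1 and SH 3, so its value turned on those rats. Mmp2 with meninges and fibroblasts had r of 0.0326 (0.179 without the 2 farthest rats), and Serpini1 with neurons -0.146 (-0.201).

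The 12 myelin markers had values of the same sign as Adamts4 and Klk6 in EEvSH and ERvEE. All 12 had positive log2 fold changes in EEvSH (median 0.35) and all 12 negative ones in ERvEE (median -0.36), with none past an adjusted p of 0.05 in limma and 4 and 2 at an unadjusted p under 0.05 (33.3% and 16.7%, against 5.87% and 3.66% of all tested genes). Their summed level was 77377 to 118157 in ER, 75944 to 181926 in EE and 79865 to 130533 in SH, and none of them was at 0. The part of oligodendrocyte content in the Adamts4 and Klk6 values was not tested apart from this relation.

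**Figure D4:**
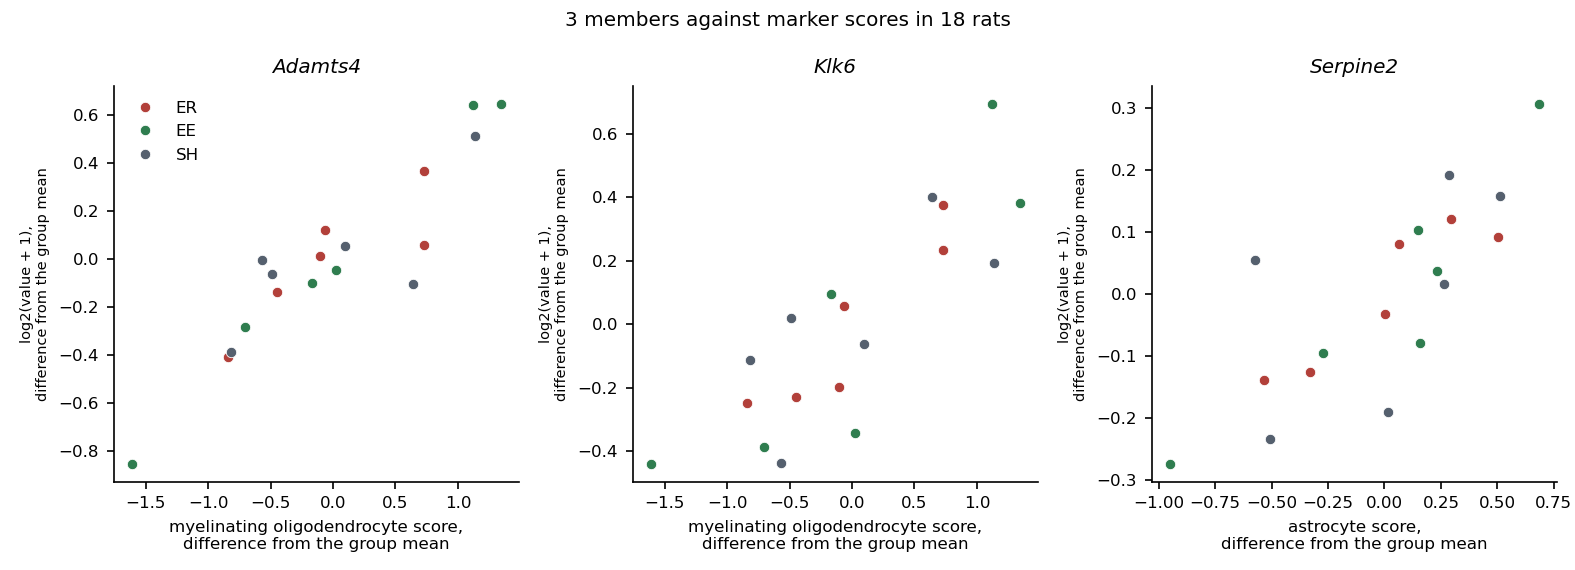
Adamts4 and Klk6 against the myelinating oligodendrocyte score, and Serpine2 against the astrocyte score, in 18 rats. Both axes give the difference of a rat from the mean of its group, the horizontal one for the mean z-score of the 12 markers and the vertical one for log2(value + 1); the points rise together, with r of 0.917, 0.842 and 0.796.

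The promoters of these 3 genes and of Reck are shown because they carry the relations and the separation described above. Each run holds the 250 bases before the start of the gene in RefSeq (GRCr8), read 5′ to 3′ on the strand of the gene. Capitals mark motif matches on either strand: the GC box GGGCGG, the core ACAAAG bound by Sox factors, the E-box CAGCTG and the AP-1 site TGAGTCA. Neighbouring GC boxes may share bases. Adamts4 lies at chr13:86202761-86203010 (plus strand), Klk6 at chr1:103415266-103415515 (plus strand), Serpine2 at chr9:88637203-88637452 (minus strand) and Reck at chr5:62898467-62898716 (plus strand).
Adamts4: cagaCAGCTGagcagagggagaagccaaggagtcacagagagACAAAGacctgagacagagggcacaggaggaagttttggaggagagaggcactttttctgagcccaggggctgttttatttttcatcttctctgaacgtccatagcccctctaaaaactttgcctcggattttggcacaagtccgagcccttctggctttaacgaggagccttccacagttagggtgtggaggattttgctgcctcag
Klk6: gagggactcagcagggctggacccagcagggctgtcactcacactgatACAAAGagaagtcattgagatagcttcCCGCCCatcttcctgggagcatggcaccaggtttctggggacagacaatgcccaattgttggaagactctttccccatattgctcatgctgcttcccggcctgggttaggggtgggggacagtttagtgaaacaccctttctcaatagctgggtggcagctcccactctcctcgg
Serpine2: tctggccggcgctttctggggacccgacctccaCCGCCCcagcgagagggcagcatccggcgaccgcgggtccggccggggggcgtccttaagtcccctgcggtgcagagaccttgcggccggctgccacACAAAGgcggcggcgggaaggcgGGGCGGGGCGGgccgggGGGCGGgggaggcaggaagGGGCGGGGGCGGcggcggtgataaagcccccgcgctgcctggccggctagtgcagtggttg
Reck: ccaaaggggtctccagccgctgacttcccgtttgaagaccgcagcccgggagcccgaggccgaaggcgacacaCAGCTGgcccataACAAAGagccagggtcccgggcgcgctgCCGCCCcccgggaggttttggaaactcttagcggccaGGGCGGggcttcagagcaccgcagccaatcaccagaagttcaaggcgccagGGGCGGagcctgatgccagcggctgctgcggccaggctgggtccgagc

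Adamts4 and Klk6 have 51.2% and 55.6% G and C in these 250 bases, near the median of 52% over 27457 genes, while Serpine2 and Reck have 76.8% and 68.4%. Serpine2 holds 6 GC boxes, Reck 3, Klk6 1 and Adamts4 0. The Sox core was found 1 time in each of the 4 windows, and in 16% of all genes' windows. The E-box was found in Adamts4 and Reck, and the AP-1 site in none of the 4. Promoters were listed for 55 of the 77 members, with 1 window taken for each gene. Of those 55, 31 held a GC box (56.4%, against 32.4% of all genes), 12 an E-box (21.8% against 11.9%), 8 a Sox core (14.5% against 16%) and 3 an AP-1 site (5.45% against 3.98%). All genes here are the 27457 with a listed window, not filtered for detection in these data as the members were. The shares are therefore of unlike sets, and their differences were not tested. The AP-1 sites were in Adam19, Klk12 and Mmp3. A match of letters is no evidence of binding, and the motifs were chosen after values had been seen.

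Ratios of an enzyme to an inhibitor within a rat were computed for 8 pairs, as a description. Mmp14 over Reck was 0.201 ± 0.0371 in ER, 0.286 ± 0.0696 in EE and 0.235 ± 0.0598 in SH, and Mmp9 over Timp1 was 0.726 ± 0.299 in ER, 0.354 ± 0.258 in EE and 0.709 ± 0.425 in SH. Plat over Serpini1 was 0.140 ± 0.00949 in ER, 0.149 ± 0.0214 in EE and 0.167 ± 0.0238 in SH, and Plat over Serpine2 was 0.239 ± 0.0256 in ER, 0.219 ± 0.0150 in EE and 0.224 ± 0.0280 in SH. Adam10 over Timp3 was 3.53 ± 0.38 in ER, 2.98 ± 0.562 in EE and 2.81 ± 0.423 in SH. All 8 ratios overlapped between groups in every contrast. As these values are not corrected for length, a ratio says how a rat stands to other rats and not which transcript is more abundant.

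Other genes of the same system were taken from 5 lists. None of their measured members, 65 genes in all, passed an adjusted p of 0.05 in limma. Of 16 genes for plasminogen and coagulation, 1, 3 and 2 had an unadjusted p under 0.05 in EEvSH, ERvSH and ERvEE (6.25%, 18.8% and 12.5%, where all tested genes gave 5.87%, 7.89% and 3.66%). Thbd, thrombomodulin, had 121 ± 21.2 in ER, 94.8 ± 15.6 in EE and 124 ± 21.5 in SH, with log2 fold changes of -0.38 (SE 0.16, adjusted p = 0.749) in EEvSH and 0.35 (SE 0.16, adjusted p = 1.00) in ERvEE, and S100a10, which binds plasminogen at the cell surface with annexin A2, had 798 ± 242 in ER and 504 ± 208 in EE (0.70, SE 0.27, adjusted p = 1.00). Of 16 activators and anchors of metalloproteases, 1 had such a p in each contrast (6.25%). In ERvEE it was Cd44, a hyaluronan receptor that can hold Mmp9 at the surface, with 50.3 ± 27.7 in ER and 104 ± 48.8 in EE (-1.06, SE 0.37, adjusted p = 1.00). The proprotein convertases Pcsk5 and Pcsk6, which remove propeptides, had 0.23 (SE 0.11, adjusted p = 0.749) in EEvSH and 0.25 (SE 0.11, adjusted p = 0.567) in ERvSH.

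Among 14 other protease inhibitors, 1, 4 and 0 had an unadjusted p under 0.05 in EEvSH, ERvSH and ERvEE, beside 5.87%, 7.89% and 3.66% of all tested genes. Itih3, a hyaluronan-binding inter-alpha-trypsin inhibitor chain, had 6580 ± 755 in ER, 6955 ± 1815 in EE and 8666 ± 1489 in SH (log2 fold change -0.39, SE 0.15, adjusted p = 0.567 in ERvSH and -0.34, SE 0.15, adjusted p = 0.749 in EEvSH). The testican genes Spock1 and Spock2 had 0.38 (SE 0.15, adjusted p = 0.567) and 0.37 (SE 0.16, adjusted p = 0.567) in ERvSH, and Sparc had -0.28 (SE 0.11, adjusted p = 0.567). Spock1 had 3256 ± 148 in ER and 2594 ± 688 in SH. Spock2 had 5207 ± 496 in ER and 4180 ± 1215 in SH, so both were spread more in SH. Of 14 matrix proteins that these enzymes cut, 1, 0 and 0 had such a p, the 1 being Nid1, a basement membrane linker, at 0.43 (SE 0.17, adjusted p = 0.749) in EEvSH. Brevican (Bcan), a main substrate of the aggrecanases, had 4171 ± 62.3 in ER, 4362 ± 365 in EE and 4432 ± 147 in SH. Its ER rats all lay below the SH rats, though the ERvSH log2 fold change was -0.09 (SE 0.05, adjusted p = 0.578), and the other contrasts overlapped. In ERvSH this was 1 of the 14 genes of the list, where 0.292% of all tested genes did not overlap, and the difference was not tested. The 5 genes of the astacin family and procollagen processing gave 0 in each contrast. For the genes of all these lists, values without the SH rats that stood apart are not given here. The part of those rats in the EEvSH and ERvSH values of the listed genes was therefore not tested.

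For 17 members at least 1 library had no read, 6 of them with a mean of 10 or more. All 77 members were found by name in RefSeq (GRCr8), and the spans of 13 of them overlap another protein-coding gene there. Besides the TIMPs these include Plat with Ikbkb, Mmp24 with Mmp24os, and Serpinb6a with Ripk1 and Nqo2. Close copies such as Serpinb6a and Serpinb6b or Serpinb1a and Serpinb1b may share reads, and the handling of such reads was not given in the sources used here.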

How the data were processed

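RNA from BLA micropunches of 18 male rats (6 ER, 6 EE, 6 SH) was made into 1 library a rat with a directional kit and sequenced single-end. Reads were aligned with HISAT2 and normalised with DESeq2 by the authors, and their versions, genome build, annotation, counting tool and strand setting were not given in the sources used here. The deposited values are a signal, reads per gene divided by 1 size factor for each library, and were used as deposited. Low values were whole multiples of 1 step, and dividing by it gave whole reads for 100% of values up to 1000 reads within 0.01 reads, or 17753797 to 23450276 reads a library. This depth limits genes with few reads. Columns of samples left unused numbered 0.

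Genes with a mean above 1 over the 18 libraries (18172) were tested on log2(value + 1) in limma 3.58.1 (R 4.3.3), with all 3 groups in 1 fit and Benjamini-Hochberg adjustment over all genes within a contrast at 0.05. Log2 fold changes on this scale can understate the change of low genes, as for Klk10 in EEvSH (1.10 in limma, 2.62 in edgeR). Where single rats lie near 0 they can also be larger than in edgeR. Adam4 in ERvSH, with SH 3 at 0, had 1.29 in limma and 0.80 in edgeR. Alternatives were TMM scaling, other filters and pseudocounts, the libraries of a contrast alone, protein-coding genes alone, edgeR 4.0.16 and DESeq2 1.42.0 on recovered reads, a replicate block, and libraries left out. The edgeR fit without EE 3 was added after the data had been seen. The limma fit was also run on simulated data. That result is not given here, so the size of change that the fit can find is not stated. Labels do not say whether a replicate number marks a shared cage or day.

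Named in the text were the 8 members with the smallest limma p in each contrast and a mean of 10 or more, members whose groups did not overlap, members the study lists as matrix genes (Mmp2, Mmp3, Adamts16, Klk7, Klk10), the member with the highest mean in each family, and members with a set role, of which 1 is not reported here. Members and lists were chosen with earlier results of these data known. Marker scores were the mean over a list's genes of standardised log2 values. The motifs, the enzyme and inhibitor pairs and the gene and marker pairs were chosen after values had been seen.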

Additional observations from a re-analysis of the deposited data

Results flagged for a closer look

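For the 34 named members, each group of 6 rats was searched for a rat whose distance to its nearest neighbour took a share of the group's range above the critical value of Dixon's test. Of 102 groups 6 held such a rat, and chance alone flags about 1 in 20 groups. Mmp19 had 52.5 normalised reads in ER 3, where the other ER rats had 22.8 to 33.3. Timp3 had 684 in ER 1, where the others had 498 to 561. Mmp2 had 249 in EE 5, where the others had 146 to 177, and Mmp3 had 11.3 in EE 1, where the others had 0 to 3.62. In SH, Mmp17 had 3642 in SH 3 against 2487 to 2920 in the others, and Klk7 had 5.27 in SH 6 with the other 5 rats at 0.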

How the results depend on the processing

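No member passed an adjusted p of 0.05 under any of the 30 alternatives, where the smallest adjusted p of a member was 0.114 in EEvSH, 0.346 in ERvSH and 0.479 in ERvEE. Over all genes DESeq2 called 1 gene in EEvSH, 2 in ERvSH and 2 in ERvEE, where limma and edgeR called 0 of each. The number of members at an unadjusted p under 0.05 moved more. In EEvSH it was 5 in limma, 0 with the libraries of the contrast alone and 9 in DESeq2, and it ran between 1 (without SH 1) and 10 (without SH 2 or SH 6) with 1 library left out. In ERvSH it was 6, against 2 with the libraries of the contrast alone and 3 without SH 1 and SH 3, and ran between 1 (without ER 3) and 15 (without SH 6). In ERvEE it was 6 and ran between 2 (without EE 5) and 10 (without EE 6), and over all genes the count of calls there ran between 0 and 1 (without EE 6). Without SH 1 and SH 3, limma gave such a p for 4, 2 and 8 of the 64 members in the 3 contrasts. All 15211 genes with a mean of 10 or more gave 1354, 1029 and 1256 then, and 887, 1274 and 536 with all rats. For the other settings the count over all genes is not given, so the counts of members have no background there. The EEvSH median of members with a mean of 10 or more was -0.041 without SH 1 and SH 3. For the 39 gene and contrast values followed through the alternatives, 1161 alternative values kept their direction and side of the threshold and 4 reversed. The side could hardly change, as no member had an adjusted p under 0.567 in the main limma fit. The 39 were among the smallest p of a contrast or taken in the gene's contrast of smallest p. A reversal was therefore less likely for them than for other values. Without SH 1 and SH 3, 25 of all 77 members in EEvSH and 20 in ERvSH had the opposite sign. Among genes with a mean of 10 or more, 21 and 15 of the 64 members did so, beside 5856 and 5341 of all 15211. Leaving out 1 library moved 21 of the 39 by over 1.5 times, 12 of them farthest without SH 3. The 4 reversals were Timp3 in EEvSH (-0.16 without SH 1 and SH 3, -0.018 to 0.29 with 1 library left out, the lowest without SH 3), Timp4 in ERvSH (0.062 without SH 1 and SH 3) and Adamts5 in ERvEE (-0.044 to 0.26 with 1 library left out, the lowest without ER 3). The cause was not tested. Replicate numbers were not treated as pairs in the main fit. Deviations of same-numbered rats correlated at -0.134 to 0.115 in EEvSH, -0.0915 to 0.299 in ERvSH and -0.15 to 0.0657 in ERvEE. Their means were -0.0172, 0.0621 and -0.0475, against 0.00599, -0.0113 and 0.0099 for rats of unlike numbers. With 6 rats a group, these correlations cannot settle whether a number marks a shared cage or day. With the replicate number as a block, 6, 8 and 5 members had an unadjusted p under 0.05 and 0 were called. Depth limits members with few reads, such as Klk7 and Mmp3.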
